A study of Oryza sativa with 6 samples.

Results

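Calmodulin-binding transcription activators (CAMTAs) are plant transcription factors that link calcium signals to gene expression. The canonical protein binds DNA through a CG-1 domain, carries ankyrin repeats, and binds the calcium sensor calmodulin through IQ motifs. In Arabidopsis, family members take part in the cold induction of CBF/DREB1 genes and in holding back salicylic acid immunity. The 7 CAMTA genes of rice described here were taken by gene identifier from the 39367 genes of the deposited table, without use of their measured values. All 7 were expressed in the panicle, and no genotype difference of any of them passed the test.

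RNA from rice panicles was sequenced in 6 libraries, 3 from CTB3-cr1 and 3 from the wild-type cultivar Nipponbare, each taken on day 1 of cold, under a regime the labels abbreviate as CS-PT. The labels call CTB3-cr1 a knockdown of CTB3, while the column headings call it a knockout, and a single line was sampled. The 3 libraries of a genotype are labelled biological replicates, so the error given is the spread between them. No source used here pairs CTB3 with a gene identifier, and it may or may not be 1 of the 7 genes. Counts per gene do not show an edit within a coding sequence itself, and whether the transcript of CTB3 was lowered could not be checked. Untreated panicles were not analysed here, so the values compare genotypes within the cold and say nothing of a cold response.

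Library totals ran from 14422565 to 16982031 counts. The tissue label was checked with fixed markers, and all 5 floral organ genes and all 4 anther and tapetum genes averaged at least 1 FPKM. FPKM is the authors' count scaled by gene length and library depth. Summed FPKM of the 4 anther and tapetum genes was 196 to 241 in the CTB3-cr1 libraries and 258 to 420 in the Nipponbare libraries, without overlap, and none of the 4 was at 0. Among single genes tested, 10.5% did not overlap between the genotypes in CPM. A genotype difference in this sum of 4 genes was not tested. Summed FPKM of the 10 leaf genes was 822 to 988 in CTB3-cr1 and 810 to 1328 in Nipponbare. Of 56 seed storage genes, glutelins and prolamins by description, 12 averaged at least 1 FPKM and 36 were at 0 in every library. Summed over all 56, they had 748 to 917 FPKM in CTB3-cr1 and 749 to 1003 FPKM in Nipponbare. The markers thus show floral and anther transcripts beside leaf and seed ones. The part of this tissue makeup in the values below was not tested. In whole panicles, fewer cells of a type and less RNA per cell cannot be told apart. Nipponbare replicate 2 lay apart on the first principal component, with a score of 80.3 against -54.8 to 17.2 in the other libraries.

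The 7 gene models were of 2 kinds. In 5 of them, Os03g0191000, Os10g0375600, Os07g0490200, Os01g0923600 and Os04g0388500, the table's family column lists the CG-1 DNA-binding domain, and no other of the 39367 genes carries that entry. Their deposited gene lengths lie close together, from 3173 bases for Os07g0490200 to 3631 bases for Os04g0388500. The other 2, Os07g0623100 and Os03g0388500, have no CG-1 entry and are shorter, with gene lengths of 986 and 1655 bases. They are described by similarity to fragments of ER66 and of an anther ethylene-upregulated protein ER1, which are CAMTA proteins of tomato and tobacco. For these 2 the family name therefore rests on the description alone, and whether the gene models are complete was not tested.

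The table places Os03g0191000 on chromosome 3 from 4726165 to 4734003 on the minus strand and describes it by similarity to CG-1, the family's founding protein from parsley. Os10g0375600, also described as similar to ER66, lies on chromosome 10 from 11935626 to 11942860 on the plus strand. Os07g0490200, named CaM-binding transcription factor, lies on chromosome 7 from 18205280 to 18218108 on the minus strand. At 12829 bases it spans the longest locus of the 7, and its gene length covers 24.7% of it. Os01g0923600, on chromosome 1 from 40397315 to 40403249 on the plus strand, is named as a homologue of the rice calmodulin-binding factor OsCBT and carries in its name field a quantitative trait locus for seedling cold tolerance. Os04g0388500, annotated by its ankyrin domain, lies on chromosome 4 from 19105902 to 19113568 on the plus strand. The CG-1-less Os07g0623100 lies on chromosome 7 from 25776199 to 25777874 on the minus strand, and Os03g0388500 on chromosome 3 from 15505524 to 15507726 on the plus strand. No source used here names the genome build of these coordinates.

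Together the 7 genes took between 0.0596% and 0.0663% of a library's counts. Their summed level was 588, 656 and 632 CPM in CTB3-cr1 replicates 1, 2 and 3, against 627, 622 and 641 CPM in Nipponbare replicates 1, 2 and 3. CPM is the count scaled to library size with TMM factors, and not to gene length. The mean was 625 CPM ± 34.2 in CTB3-cr1 and 630 CPM ± 9.82 in Nipponbare (SD, n = 3 each). The groups overlapped, since the lowest and the highest family totals were both CTB3-cr1 libraries.

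Per deposited gene length, the 2 genes without a CG-1 entry stood highest. If their short gene models are partial, their FPKM and ranks would change. Os07g0623100 had 65.8, 73.4 and 69.9 FPKM in the CTB3-cr1 libraries and 67.5, 62.1 and 68.9 FPKM in the Nipponbare libraries. It ranked first of the 7 in all 6 libraries, and the genotypes overlapped. Os03g0388500 ranked second in all 6 libraries, with 50.7, 68.3 and 50.9 FPKM in CTB3-cr1 and 47.0, 56.1 and 52.0 FPKM in Nipponbare. Its highest value came from CTB3-cr1 replicate 2 and its lowest from Nipponbare replicate 1. The 5 CG-1 genes together made up 48.9% to 53.1% of the family's FPKM in CTB3-cr1 libraries and 52.9% to 54.7% in Nipponbare libraries, and these 2 genes the rest.

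Of the CG-1 genes, 3 formed a middle group. Os03g0191000 had 29.0, 37.8 and 35.6 FPKM in CTB3-cr1 and 35.7, 36.9 and 29.6 FPKM in Nipponbare. Os10g0375600 had 33.9, 32.5 and 33.6 FPKM in CTB3-cr1 and 32.4, 31.2 and 37.9 FPKM in Nipponbare. Os07g0490200 had 30.2, 31.1 and 30.4 FPKM in CTB3-cr1 and 31.1, 28.4 and 33.1 FPKM in Nipponbare. All 3 overlapped between the genotypes. Os07g0490200 is the rice calmodulin-binding factor OsCBT, known in rice as a negative regulator of defence.

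The remaining CG-1 genes stood lowest. Os01g0923600, the gene whose name carries the cold tolerance locus, had 16.4, 18.0 and 21.8 FPKM in CTB3-cr1 and 22.6, 18.1 and 19.6 FPKM in Nipponbare. CTB3-cr1 replicate 1 was lowest and Nipponbare replicate 1 highest, with the other libraries mixed between them. Os04g0388500 had 16.2, 15.9 and 15.5 FPKM in CTB3-cr1 and 16.6, 18.0 and 19.6 FPKM in Nipponbare. Here every CTB3-cr1 library was below every Nipponbare library, although CTB3-cr1 replicate 1 and Nipponbare replicate 1 nearly met.

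**Figure D1:**
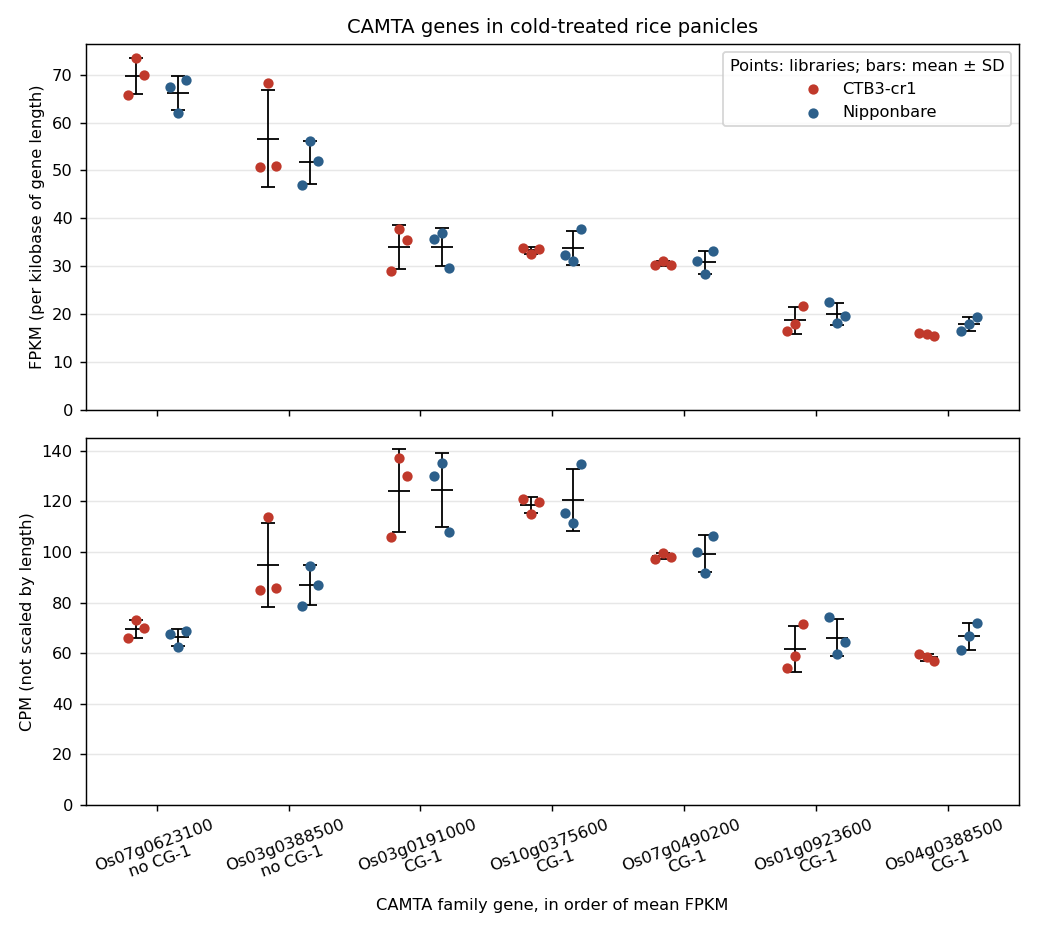
Level of each CAMTA gene in the 3 CTB3-cr1 libraries (red, left of each pair) and the 3 Nipponbare libraries (blue, right), in FPKM above and in CPM below, with bars for mean ± SD. Os07g0623100 and Os03g0388500 lead in FPKM, at means of 67.9 and 54.1 over the 6 libraries, while Os03g0191000 and Os10g0375600 lead in CPM.

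Neighbours in the order of mean FPKM were compared within libraries by a two-sided exact permutation test with sign flips over the 6 libraries, whose smallest possible p is 0.0312. In 5 of the 6 neighbouring pairs the upper gene was higher in 6 of 6 libraries (p = 0.0312 in the exact test, 0.0375 adjusted over the 6 pairs). A pair with 6 of 6 receives this smallest p whatever the size of its step. The pairs and their order were read from these same 6 libraries, so the p-values are no independent support for the order. The steps were uneven. Os03g0388500 stood 1.59-fold above Os03g0191000, and Os07g0490200 also stood 1.59-fold above Os01g0923600. Os07g0623100 exceeded Os03g0388500 by 1.26-fold, and Os10g0375600 exceeded Os07g0490200 by 1.09-fold. Os01g0923600 exceeded Os04g0388500 by 1.14-fold on average, but this step was uneven across libraries, with a mean log2 difference of 0.19 and an SD of 0.23. It was 41.1% in CTB3-cr1 replicate 3 and 36.2% in Nipponbare replicate 1, and between 0.44% and 1.70% in CTB3-cr1 replicate 1 and Nipponbare replicates 2 and 3, which is within counting error. From the top gene to the lowest the difference was 4.01-fold. The exception was Os03g0191000 against Os10g0375600, where the mean log2 difference in FPKM was 0.02 with an SD of 0.25, and Os03g0191000 was higher in 4 of 6 libraries (exact permutation p = 0.875, also after adjustment).

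The order of levels depends on gene length. In CPM, which is not scaled by length, Os07g0623100 took rank 5 or 6 and Os03g0388500 rank 3 or 4, while Os03g0191000 and Os10g0375600 shared the first 2 ranks in all 6 libraries. Os07g0623100 received 862 to 1198 counts per library, and Os03g0191000 received 1630 to 2223 over a gene model more than 3 times as long. Only 2 of the 6 neighbouring pairs kept their FPKM order in every library when CPM was used.

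Against all 25636 genes tested, the family lay in the upper part of the panicle's range. Os07g0623100 was above 92.7% of these genes in mean FPKM, Os03g0191000 above 82.7% and Os04g0388500 above 65.3%. The biological coefficient of variation, edgeR's estimate of replicate spread beyond counting, was 0.132 to 0.165 in the 7 genes, with a median of 0.143, against a median of 0.153 in the 2520 tested genes within the same CPM range and 0.216 in all tested genes. By that estimate Os07g0623100 was the least variable. By the plain coefficient of variation of CPM over the 6 libraries it was Os07g0490200, at 4.81%. Among 4598 tested genes within 2-fold of its CPM, 93.9% varied more. Os03g0388500 varied most by both measures, at 13.7% in CPM, and 38.7% of 4975 genes of like CPM varied more than it did.

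Counting error was between 2.09% and 3.48% of a gene's count in a library. In the CTB3-cr1 libraries Os10g0375600 had a coefficient of variation of 2.56% in CPM, close to its counting error of 2.28%. Os07g0490200 and Os04g0388500 had coefficients of variation of 1.23% and 2.19% there, below their counting errors of 2.51% and 3.25%. In the Nipponbare libraries these 3 genes had 10.3%, 7.40% and 8.13%. Such low spread among 3 libraries is therefore no measure of the biological variation of these genes.

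The middle group changed order in 1 library of each genotype. The FPKM of Os03g0191000 divided by that of Os10g0375600 was 0.855 in CTB3-cr1 replicate 1 and 0.782 in Nipponbare replicate 3. In the other 4 libraries it was 1.06 to 1.18. Across the 6 libraries the log2 CPM of these genes ran in opposite directions (Pearson r = -0.782, Spearman rho = -0.886, and r = -0.631 without the 2 libraries farthest from the median of Os03g0191000). Over all 21 pairs of members, 12 correlations were positive and 9 negative, with a median r of 0.13. The highest, between Os10g0375600 and Os07g0490200 (r = 0.825, rho = 0.486), rested on 2 libraries and was -0.989 over the other 4. No pair kept an r above 0.5 both with and without its 2 farthest libraries. These are descriptions of 6 libraries that share depth and scaling, not evidence that genes are regulated together.

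**Figure D2:**
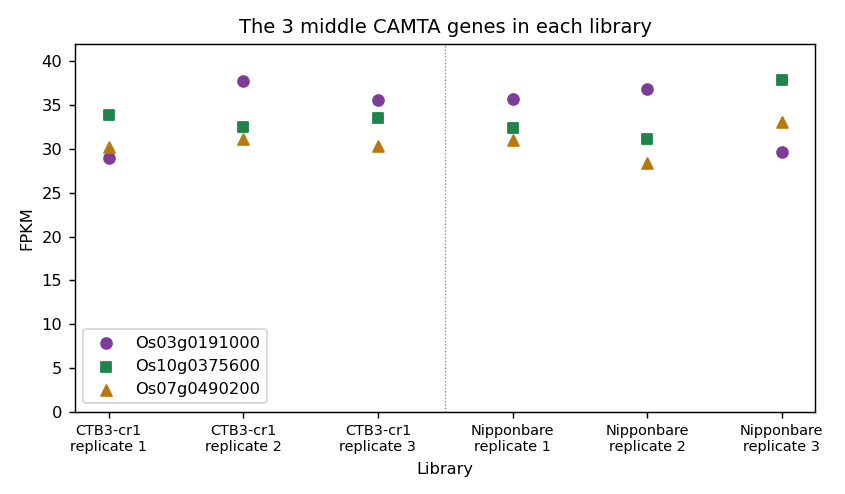
FPKM of the 3 CAMTA genes of middle level in each library, CTB3-cr1 left of the dotted line and Nipponbare right of it. Os03g0191000 (circles) is lowest of the 3 in CTB3-cr1 replicate 1, at 29.0 FPKM, and in Nipponbare replicate 3, at 29.6 FPKM, and is highest of the 3 in the other 4 libraries.

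Setting CTB3-cr1 against Nipponbare asked whether any CAMTA transcript differed between the genotypes in the cold. With edgeR's quasi-likelihood test and Benjamini-Hochberg adjustment over 25636 genes, 0 of the 7 passed an adjusted p of 0.05. Over all genes tested, 0.078% passed. An unadjusted p under 0.05 was reached by 0 of the 7 and by 5.25% of all genes tested, and DESeq2 and limma-voom also called 0 of the 7. By the authors' deposited table, 0 of the 7 passed, against 0.621% of the genes with an adjusted p there, and each member had an adjusted p of 0.9999.

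Os04g0388500 came closest to a difference. It stood at 58.3 CPM ± 1.27 in CTB3-cr1 and 66.6 CPM ± 5.41 in Nipponbare (SD, n = 3 each). Its log2 fold change was -0.19 ± 0.11 (SE), with an unadjusted p of 0.111 and an adjusted p of 0.994 in edgeR. It was the 1 member of 7 whose groups did not overlap in CPM, which also held for 10.5% of all genes tested. The nearest libraries, CTB3-cr1 replicate 1 at 59.6 CPM and Nipponbare replicate 1 at 61.1 CPM, differed by less than the counting error of 3.30% and 3.23%. An antisense neighbour, Os04g0388601, overlaps its 3′ end by 218 bases. Reads there cannot be assigned to 1 gene without a stated strand setting. That neighbour had 341, 274 and 313 counts in CTB3-cr1 and 240, 258 and 440 counts in Nipponbare, with a log2 fold change of -0.06 ± 0.22 (SE, edgeR adjusted p = 0.996).

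On the positive side, Os03g0388500 had 94.9 CPM ± 16.6 in CTB3-cr1 and 86.8 CPM ± 7.93 in Nipponbare (SD, n = 3 each), a log2 fold change of 0.13 ± 0.15 (SE). Without CTB3-cr1 replicate 2, its highest library, the log2 fold change was -0.02. Os07g0623100 had 0.07 ± 0.10 (SE). Neither passed (edgeR adjusted p = 0.996 for both).

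The other 4 CG-1 genes were centred near or slightly below 0. Os01g0923600 had 61.5 CPM ± 9.15 in CTB3-cr1 and 66.1 CPM ± 7.29 in Nipponbare (SD, n = 3 each), a log2 fold change of -0.10 ± 0.15 (SE), which was -0.01 without CTB3-cr1 replicate 1 or without Nipponbare replicate 1 and -0.22 without CTB3-cr1 replicate 3. Os10g0375600 had -0.02 ± 0.12 (SE) and Os07g0490200 -0.02 ± 0.11 (SE). Os03g0191000, the member with the most counts summed over the libraries, had 0.00 ± 0.15 (SE). None of these 4 passed in edgeR, whose adjusted p was 0.996 for 3 of them and 0.9997 for Os03g0191000.

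**Figure D3:**
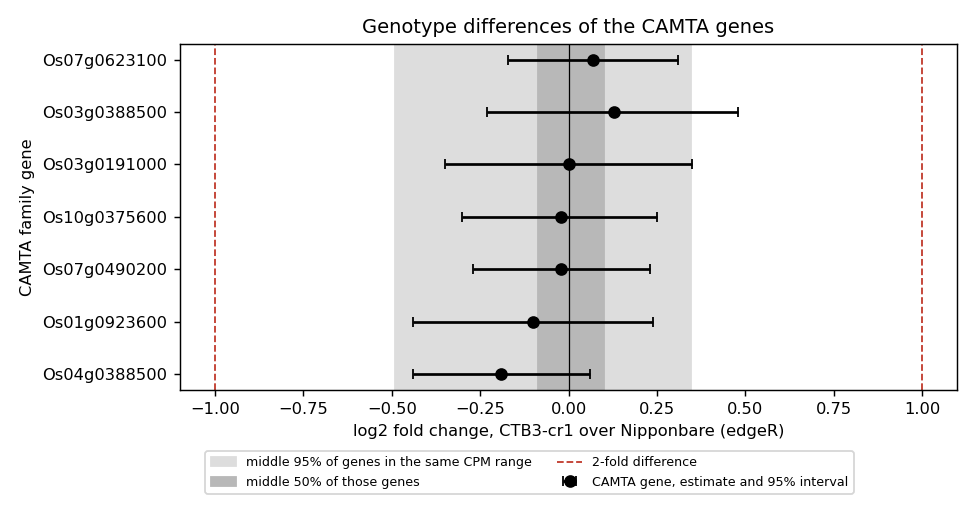
Log2 fold change of each CAMTA gene, CTB3-cr1 over Nipponbare (edgeR), with its 95% interval. Grey bands hold the middle 95% and 50% of the 2520 tested genes in the same CPM range, and dashed lines mark a 2-fold difference. Every interval crosses 0 and none reaches a 2-fold difference.

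The intervals show which differences these libraries allow. They cover the error of the fit over 3 libraries of each genotype. The 95% interval of the ratio of CTB3-cr1 to Nipponbare was 0.737 to 1.04 for Os04g0388500, 0.735 to 1.18 for Os01g0923600 and 0.785 to 1.27 for Os03g0191000. It was 0.814 to 1.19 for Os10g0375600, 0.832 to 1.18 for Os07g0490200, 0.889 to 1.24 for Os07g0623100 and 0.854 to 1.40 for Os03g0388500. A 2-fold difference in either direction lay outside all 7 intervals. The members' median absolute log2 fold change was 0.07, against 0.09 in the 2520 tested genes of the same CPM range and 0.15 in all genes tested.

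**Figure D4:**
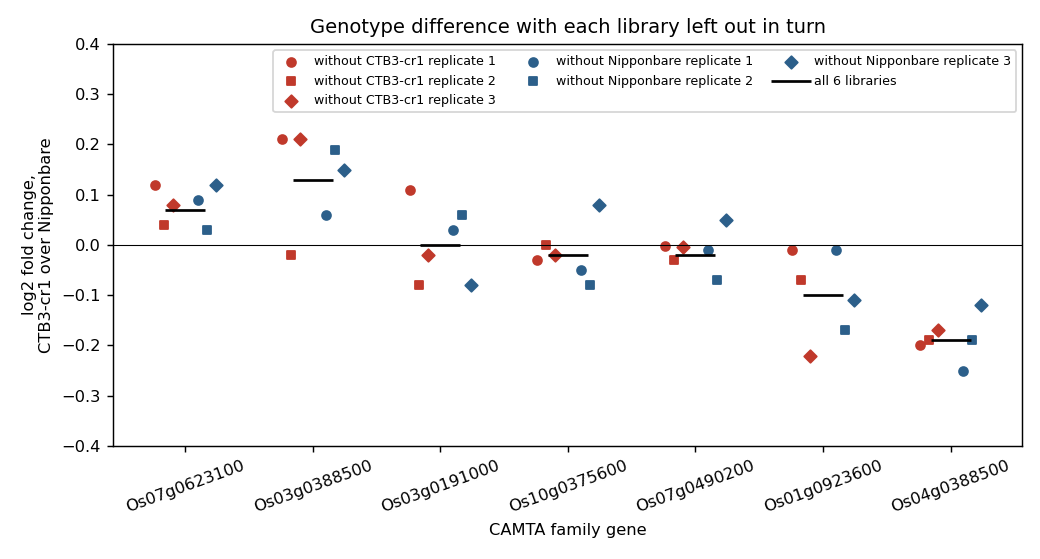
Log2 fold change of each CAMTA gene, CTB3-cr1 over Nipponbare (edgeR), with all 6 libraries (black line), without each CTB3-cr1 library (red) and without each Nipponbare library (blue). Values for Os04g0388500 stay between -0.25 and -0.12, those of Os03g0388500 run from -0.02 to 0.21, and those of Os03g0191000 from -0.08 to 0.11.

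Calmodulin, the calcium sensor that binds CAMTA proteins, and its relatives were read from the same fit. Lists were drawn from the deposited names and descriptions. Of 44 calmodulin and calmodulin-like genes, 27 were tested, and 0 rose and 0 fell at an adjusted p of 0.05. The log2 fold change was negative in 20 and positive in 7, with a median of -0.16. Over all genes tested, 0.078% were called, 12949 were negative and 12687 positive, and the median was 0.00. The most negative value of the list, -0.92 for Os11g0134400, came from 5 to 25 counts per library. The list was matched by words and 4 of the tested genes are not calcium sensors, namely the cyclic nucleotide gated channel genes Os03g0758300, Os05g0502000 and Os01g0782800 and the calcium pump gene CA2+-ATPASE 6 (Os01g0939100). All 4 had a negative log2 fold change, and without them, a choice made after seeing the data, 16 of 23 were negative and the median was -0.09. The 5 genes of the list above 100 FPKM, among them CALMODULIN-LIKE PROTEIN 7 (Os08g0117400), had log2 fold changes between -0.16 and 0.22. CALMODULIN A (Os05g0491100), the most abundant, stood at 531 FPKM ± 4.20 in CTB3-cr1 and 546 FPKM ± 52.7 in Nipponbare (SD, n = 3 each), a log2 fold change of -0.04 ± 0.13 (SE, edgeR adjusted p = 0.996). The smallest p of the list belonged to CA2+-ATPASE 6, with -0.90 ± 0.25 (SE, edgeR adjusted p = 0.714), which was named after its value was seen.

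Other calmodulin-binding proteins had 57 tested genes of 73, with 0 called and a median log2 fold change of 0.01. The most abundant, the IQ-domain gene Os04g0569900, had -0.08 ± 0.16 (SE). The list matched by calmodulin and kinase had 7 tested genes of 8, 0 called and a median of 0.04. Its most abundant member, Os02g0151800, is described as a phosphatase of such kinases and had 0.11 ± 0.14 (SE).

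Lists around the cold and immunity genes that Arabidopsis CAMTAs act on were also read from the fit, for the members that could be tested. Of 10 genes of the DREB1 list, whose products switch on cold-response genes, 2 passed the filter on low counts, and neither passed the test. Os04g0549700, the more abundant, is named ETHYLENE RESPONSE FACTOR 33 and was matched by words in its description alone. It stood at 8.43 FPKM ± 1.24 in CTB3-cr1 and 9.77 FPKM ± 2.92 in Nipponbare (SD, n = 3 each), a log2 fold change of -0.21 ± 0.26 (SE, edgeR adjusted p = 0.996). The other tested gene, Os06g0165600, is named as DREB1D and had 46 to 55 counts per library, with 0.03 ± 0.26 (SE, edgeR adjusted p = 0.996). The other 8 did not pass the filter, so a difference in them was not tested in this fit. Among them, Os02g0676800 had 47 counts in CTB3-cr1 replicate 1, 121 in Nipponbare replicate 3 and 1 to 7 in the other libraries. It was named after its counts were seen. Of 3 ICE genes, upstream activators of DREB1 genes, 2 were tested and had log2 fold changes of 0.35 and 0.37, with 0 called. The 7 genes of the list of EDS1 and salicylic acid genes, all tested, had a median of -0.05 and 0 called. Its most abundant member, NPR1-like gene 5 (Os01g0948900), had 0.15 ± 0.13 (SE, edgeR adjusted p = 0.996).

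**Figure D5:**
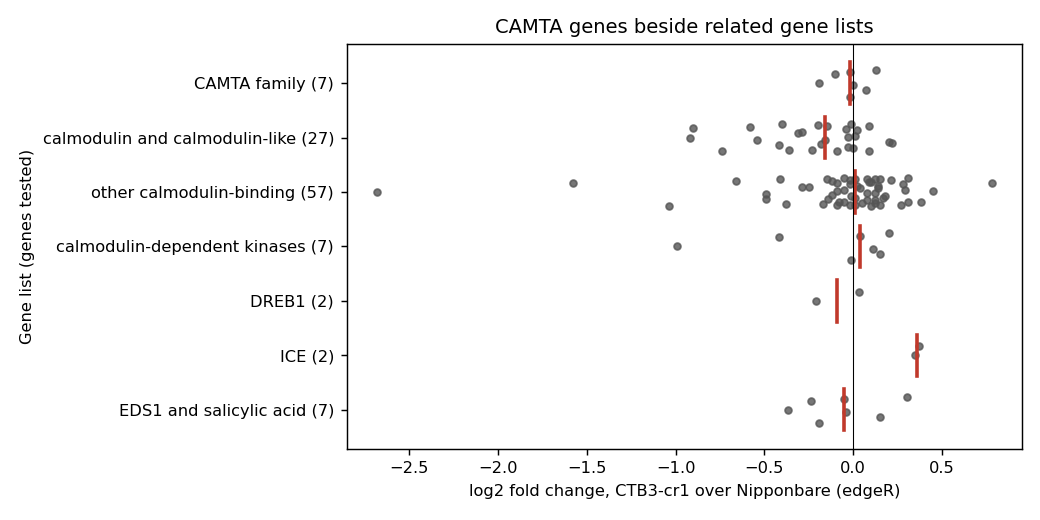
Log2 fold change, CTB3-cr1 over Nipponbare (edgeR), of every tested gene (points) of the CAMTA family and of 6 related lists, with the number tested in brackets and red lines at the medians. The CAMTA genes span -0.19 to 0.13. The calmodulin list has its median at -0.16, or at -0.09 without its channel and pump genes, and none of its genes was called.

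Likeness of pattern was measured for the leading CAMTA gene. Over the 6 libraries, 77 of 15184 genes with at least 10 CPM had a Pearson r above 0.9 with Os07g0623100 in log2 CPM. The most alike were Os05g0495700, a glycerol-3-phosphate dehydrogenase gene (r = 0.990, Spearman rho = 1.0), Os07g0631500, similar to a Mov34/MPN/PAD-1 family protein (r = 0.990, rho = 1.0), and Os05g0370100, a conserved hypothetical protein gene (r = 0.989, rho = 1.0). Without the 2 libraries farthest from the median the r values were 0.984, 0.95 and 0.974. They were picked as the highest of 15184 correlations over 6 libraries. Os07g0623100 itself varied little, with a coefficient of variation of 5.33% against a counting error of 2.89% to 3.41% in a library. How many genes would exceed 0.9 by chance was not tested, so the 77 are no evidence of shared regulation.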

How the data were processed

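Per the labels' protocols, libraries came from total RNA of rice panicles with an NEBNext Ultra kit, sequenced on an Illumina NovaSeq. Fastp 0.19.7, HISAT2 and DESeq2 were run by the authors, per the submitters' processing notes. No source used here names the genome build, annotation, read counter or strand setting. The deposited table gives raw counts and FPKM per library, per the file headers. FPKM equalled counts per deposited gene length and a library total. The authors' group means (a normalised signal), log2 fold changes and p-values are deposited beside them. A broken entry leaves 2 lines without an identifier, and these were left out (no more than 0.000478% of counts).

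The 7 members were taken by identifier and not by their values. They, the related lists, the marker genes and the alternatives were still chosen with earlier results of these data known. List members were matched by identifier or words in the deposited names. Sample titles gave the groups. Genotypes were tested with edgeR 4.0.16 in R 4.3.3 (filterByExpr, TMM, genotype alone, quasi-likelihood F test, Benjamini-Hochberg over 25636 genes). All 7 members passed the filter. SE is the log2 fold change over the square root of F, and intervals are at 95% from the t distribution of the fit. Alternatives were DESeq2 1.42.0, limma-voom and limma-trend (limma 3.58.1) on log2(FPKM + 1) and log2(FPKM + 0.1), with FPKM above 1 in 3 libraries or no filter, RLE factors, library size alone, no count filter, the replicate number as a block, and each library left out. Named genes were the 7 members, up to 4 called genes or else the most abundant tested gene of each list, and the 3 genes most like the top member. The fits were tested on counts simulated with the replicate spread of these data, with changes of at least 2-fold planted in 200 genes. Differences as small as those of the members were not simulated. Counting errors are 1 over the square root of the count.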

Additional observations from a re-analysis of the deposited data

How the results depend on the processing

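Under all 15 alternatives 0 of the 7 members passed, with each library left out in turn included. The count of all genes called was 20 and moved with the setting: DESeq2 called 205, the fit with the replicate number as a block called 4, and leaving out single libraries gave 4 to 16. Deviations of same-numbered libraries from their group means had correlations of -0.274, 0.367 and -0.0708. They lay within the range of the pairs with different numbers, from -0.391 to 0.470. Deviations from a mean of 3 libraries sum to 0, so these correlations depend on each other. Whether the numbers pair the samples was not tested. No label says that they do. Under the block the largest member difference was still -0.19 for Os04g0388500, as without it.

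Directions of the members near 0 changed. With library size alone, which shifts the median log2 fold change of all genes to 0.03, Os03g0191000 had 0.03, Os10g0375600 0.01 and Os07g0490200 0.02. With no filter Os03g0191000 had 0.01. Leaving out single libraries gave ranges of -0.08 to 0.11 for Os03g0191000, -0.08 to 0.08 for Os10g0375600, -0.07 to 0.05 for Os07g0490200 and -0.02 to 0.21 for Os03g0388500. Os07g0623100, Os01g0923600 and Os04g0388500 kept their sign in all 15. The order by level kept 5 of 6 neighbouring pairs in every library in FPKM and 2 of 6 in CPM, which by construction leaves out gene length. The planned description by promoter motif was not run, since no promoter sequence was used here.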

Other observations

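CTB3-cr1 replicate 1 and Nipponbare replicate 3 were the libraries in which Os03g0191000 lay below Os10g0375600. Over all genes tested, the correlation of their deviations from their group means in log2 CPM was 0.470. It was the highest of the 9 pairs of a CTB3-cr1 with a Nipponbare library, whose lowest value was -0.391. Deviations from a mean of 3 libraries sum to 0, so some of the 9 values must be positive and others negative. The 0.470 alone therefore does not show that these libraries are alike. The replicate numbers of these libraries differ, and no label says that they share a day, plant or batch. Whether these deviations have a part in the swap of these CAMTA genes was not tested.

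Of the 15 genes next to or overlapping the CAMTA loci, 11 could be tested and 0 of them passed in edgeR. Os04g0388700, the gene downstream of Os04g0388500, had 330, 408 and 373 counts in CTB3-cr1 and 269, 247 and 341 counts in Nipponbare, which is 0.31 ± 0.13 (SE) on the log2 scale (edgeR adjusted p = 0.940). The convergent gene Os07g0490100 ends 122 bases from Os07g0490200 and varied from 86 counts in Nipponbare replicate 3 to 247 in Nipponbare replicate 2, while Os07g0490200 had 1801 and 1267 counts in these libraries.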
